A study of Homo sapiens with 12 samples.

Results

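The 10 genes described here encode the core machinery that makes microRNAs and loads them into silencing complexes. They were chosen by symbol and are DROSHA, DGCR8, XPO5, DICER1, TARBP2, AGO1, AGO2, AGO3, AGO4 and TNRC6A. All 10 were among the 17303 genes of the deposited table, and all 10 were among the 12868 genes that passed the expression filter and were tested. They were followed by RNA-seq in the gastric cancer line SNU638, which is an established human line, in 4 stable lines made by lentiviral infection and puromycin selection. The knockdown lines, labelled sh-SKA2-1, sh-SKA2-2 and sh-SKA2-3, carried different short hairpins against SKA2 and are called hairpin 1, hairpin 2 and hairpin 3. The line labelled sh-control, with a genotype label of wt, carried a control hairpin, so a hairpin RNA and the selection were shared by all 4 lines. There were 3 libraries per line and 12 in all. Each hairpin was present in 1 line, so the hairpin and the line that carries it cannot be told apart, and the labels do not say whether a line was a clone or a pool. Nor do they tell if a line was cultured separately for each library, so p-values measure a spread between libraries that may be technical.

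MicroRNA genes are transcribed as long primary transcripts that fold into hairpins. In the nucleus DROSHA, an RNase, cuts the hairpin free together with its RNA-binding partner DGCR8, and XPO5 carries it to the cytoplasm. There DICER1, another RNase, trims it to a short duplex with the help of TARBP2, and an Argonaute protein keeps one strand as its guide. TNRC6A, a GW182 protein, binds Argonaute and recruits deadenylases that silence the target mRNA. Short hairpin RNAs made from a lentivirus enter the same route, usually at the export step. SKA2, the targeted gene, is itself a microRNA host gene, and DICER1 is a known target of the miR-103 and miR-107 family in human cells.

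The microRNAs of the SKA2 locus and the miR-103 and miR-107 family are shown because their seed matches are counted in the members below. The hairpins of miR-301a and miR-454 both lie inside the span of SKA2 (chr17:59109951-59155269, minus strand, GRCh38) and on its strand. In the mature sequences from RefSeq (GRCh38.p14), 5′ to 3′, the capitals mark the seed, bases 2 to 8. The first pair shares the seed AGUGCAA and the second pair the seed GCAGCAU.
miR-301a-3p, chr17:59151149-59151171, minus strand: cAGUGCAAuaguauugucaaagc
miR-454-3p, chr17:59137787-59137809, minus strand: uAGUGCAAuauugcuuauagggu
miR-103a-3p, from MIR103A1 at chr5:168560904-168560926, minus strand: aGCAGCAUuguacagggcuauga
miR-107, chr10:89592756-89592778, minus strand: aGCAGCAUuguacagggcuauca
Mature microRNAs are not captured by poly(A)-selected libraries, so their levels were not measured.

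For each gene, the longest 3′ UTR among its GENCODE v29 protein-coding transcripts was searched on the sense strand for the 7 letters that pair with each seed. These are TTGCACT for miR-301a and miR-454 and ATGCTGC for miR-103a and miR-107. TTGCACT occurred in 16.4% and ATGCTGC in 14.0% of the 12711 tested genes with a 3′ UTR. DICER1 held 3 and 5 matches in 4270 bases, AGO4 held 2 and 2 in 4285 bases, and TNRC6A held 1 and 0 in 2420 bases. AGO1, AGO2 and AGO3, with UTRs of 10921, 11888 and 16755 bases, held 3, 6 and 5 matches for TTGCACT and 3, 5 and 1 for ATGCTGC. XPO5 held 1 match for TTGCACT and 0 for ATGCTGC, and DROSHA, DGCR8 and TARBP2 held 0 of either. Long UTRs hold such a string often: among tested genes with a UTR within 20% of the length of that of DICER1, 34.3% held TTGCACT and 28.8% held ATGCTGC. Around the UTR lengths of AGO1, AGO2 and AGO3, 62.0%, 60.5% and 73.8% of genes held TTGCACT. For ATGCTGC the shares were 52.1%, 54.6% and 71.4%. The matches in DICER1, AGO4 and TNRC6A, the members that were higher with every hairpin under each treatment of transcript length described below, are shown with 8 bases on each side. Coordinates are those of the capitals, which mark the match to the seed (GRCh38).
DICER1, seed of miR-301a and miR-454, chr14:95089045-95089051, minus strand: ttttttttTTGCACTgtaactat
DICER1, seed of miR-301a and miR-454, chr14:95088989-95088995, minus strand: ggtcagtcTTGCACTcccatcaa
DICER1, seed of miR-301a and miR-454, chr14:95087594-95087600, minus strand: gataagcaTTGCACTtggtacca
DICER1, seed of miR-103a and miR-107, chr14:95089458-95089464, minus strand: cctaaaatATGCTGCagatttta
DICER1, seed of miR-103a and miR-107, chr14:95088857-95088863, minus strand: ttcgtggaATGCTGCatttatat
DICER1, seed of miR-103a and miR-107, chr14:95087653-95087659, minus strand: tcctaactATGCTGCgttttata
DICER1, seed of miR-103a and miR-107, chr14:95086382-95086388, minus strand: accatcacATGCTGCagctgttt
DICER1, seed of miR-103a and miR-107, chr14:95086330-95086336, minus strand: cagtaatcATGCTGCagaaattt
AGO4, seed of miR-301a and miR-454, chr1:35853731-35853737, plus strand: cggaatagTTGCACTgaatctat
AGO4, seed of miR-301a and miR-454, chr1:35854226-35854232, plus strand: caggcaatTTGCACTatatttgg
AGO4, seed of miR-103a and miR-107, chr1:35854424-35854430, plus strand: cccattttATGCTGCtgtgtggt
AGO4, seed of miR-103a and miR-107, chr1:35854768-35854774, plus strand: aatgagtgATGCTGCaacttgca
TNRC6A, seed of miR-301a and miR-454, chr16:24824199-24824205, plus strand: ttttccctTTGCACTgaatgatg
A match is a description of these letters and not a measured site.

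The libraries held between 14693343 and 16739155 counts. SKA2 was at 22.3 to 28.0 CPM (counts scaled to library size after TMM) in the 9 knockdown libraries, against 117 to 126 CPM in the 3 control libraries. The epithelial markers EPCAM, KRT8, KRT18 and KRT19 were high in every library, between 268 and 1520 TPM, while CDH1, the E-cadherin gene, was at 0.73 to 3.62 TPM. The 5 epithelial markers together were at 1543 to 1649 TPM with hairpin 2, against 3252 to 3642 TPM in the control. The 14 markers in the table, out of 16 listed, of immune, stromal, endothelial and red cells summed to 6.29 to 12.3 TPM in the knockdown libraries, against 14.9 to 17.4 TPM in the control. Of the 12 libraries, PTPRC was above 0 in 4, CD3E in 2 and KDR in 1, whereas CD79A, CD14, LYZ and COL1A1 were above 0 in all 12. Of these markers 3 passed the expression filter. CD79A averaged 1.59, 0.659 and 2.69 CPM with hairpins 1, 2 and 3, against 4.77 CPM in the control, and was called lower with each in edgeR. COL1A1 averaged 5.27, 7.44 and 4.67 CPM, against 8.0 CPM, and was called lower with hairpins 1 and 3. HBA1, above 0 in 8 of the 12 libraries, averaged 0.131, 0.175 and 0.401 CPM, against 0.958 CPM, and was called lower with hairpins 1 and 2. With the length and GC offsets described below, the HBA1 calls and the CD79A call with hairpin 3 were lost. The part of these markers in the results was not tested. In bulk RNA, fewer cells of a type and less RNA per cell cannot be told apart.

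Libraries differed in how strongly their counts leaned to long transcripts, which bears on this gene set because 7 of its members have transcripts as long as or longer than 80.6% of tested genes. The lean is given as a length slope, the deviation of log2 CPM from the mean of all libraries per doubling of transcript length. It was 0.082, 0.11 and 0.094 with hairpin 1, 0.15, 0.17 and 0.20 with hairpin 2, 0.092, -0.12 and -0.17 with hairpin 3, and -0.056, -0.24 and -0.32 in the control. The first hairpin 3 library and the first control library stood apart from the other libraries of their lines. Transcript lengths implied by the table ran from 1184 bases for TARBP2, through 3671 for DGCR8, 3948 for DROSHA and 5047 for XPO5, to 6573 for AGO4, 7545 for TNRC6A, 10321 for DICER1, 12695 for AGO1, 14317 for AGO2 and 14693 for AGO3. Each change below was therefore fitted with TMM scaling alone, with the length slope of each library as a covariate, and with offsets for transcript length and GC content. The last pair of fits takes out any true difference that follows length as well as any technical one. The slopes of hairpins 1 and 2 did not overlap those of the control and varied little within each line. The covariate therefore rests mostly on the spread within hairpin 3 and the control. For hairpins 1 and 2 it is carried across lines whose slopes do not meet, so slope and line are only partly separable there.

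With TMM scaling alone, the dicing and silencing genes DICER1, AGO1, AGO4 and TNRC6A were called higher with each hairpin, AGO2 and AGO3 with hairpins 1 and 2, and DROSHA with hairpin 2. A call is a Benjamini-Hochberg adjusted p under 0.05 over all tested genes in the quasi-likelihood test of edgeR. With hairpin 1, 6 members were higher (31.5% of all tested genes) and 2 lower (31.5%), 8 of 10 called where 63.1% of all tested genes were called. With hairpin 2, 7 were higher (36.6% of tested genes) and 1 lower (37.8%), where 74.4% were called. With hairpin 3, 4 were higher (23.6%) and 0 lower (24.0%), also 0 at an unadjusted p under 0.05 in edgeR, where 47.6% of tested genes were called. In the mean of the 3 hairpins 7 were higher (33.7%) and 1 lower (35.8%), where 69.5% were called. These counts of called members lay near the shares of all tested genes called. The median log2 fold change of the members was 0.90, 0.73 and 0.26 with hairpins 1, 2 and 3, where that of all tested genes was 0.01, -0.02 and 0.01. Rises of at least 2-fold were called for 4, 4 and 1 members, against 7.06%, 14.7% and 3.26% of tested genes. The comparisons with the control share its 3 libraries.

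**Figure D1:**
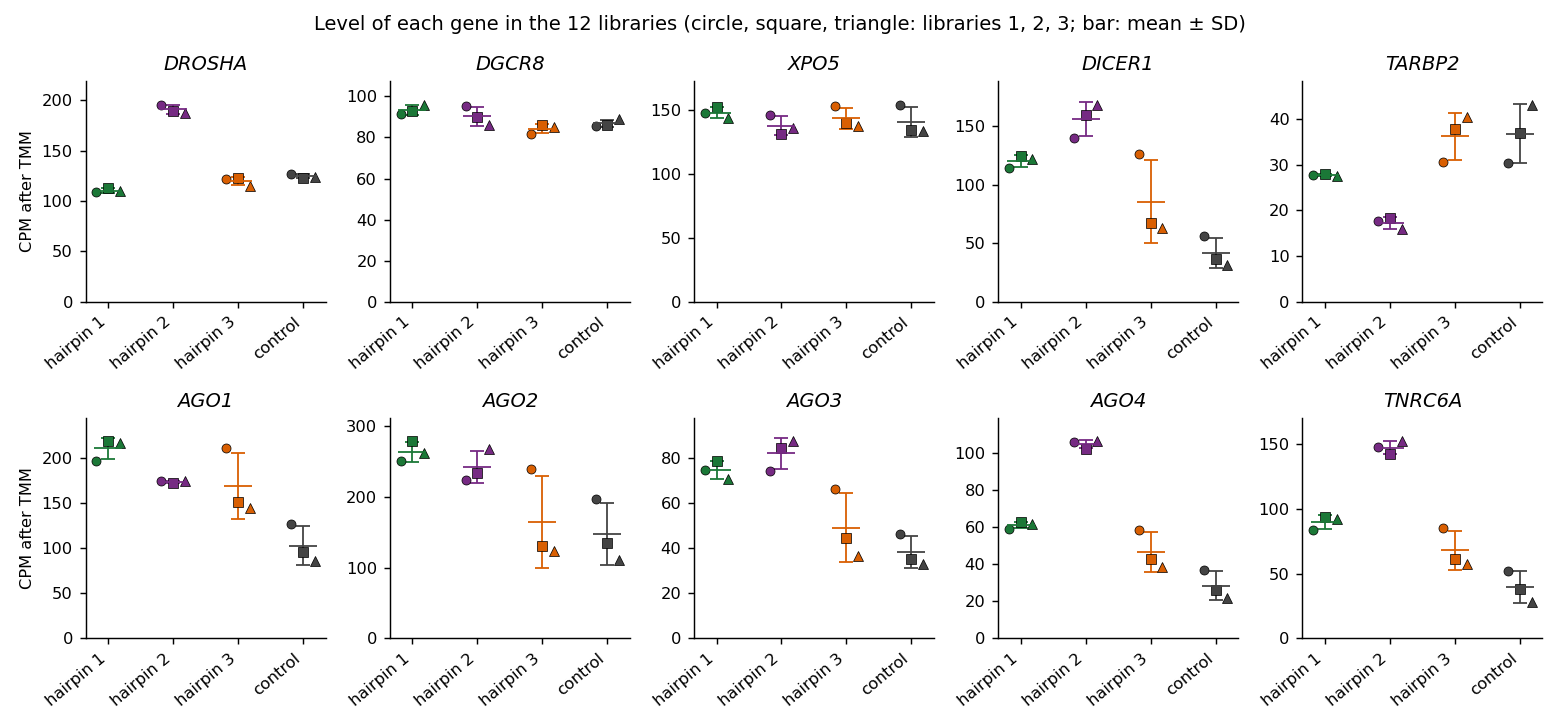
CPM after TMM scaling (y axis, from 0) of each of the 10 genes in every library of hairpin 1, hairpin 2, hairpin 3 and the control (x axis), with the mean and SD of each line. DICER1, AGO1, AGO4 and TNRC6A lie above all 3 control libraries in all 9 knockdown libraries, and the first hairpin 3 library (circle) lies above the other hairpin 3 libraries for the 4 Argonaute genes, DICER1 and TNRC6A.

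DROSHA (Entrez 29102, chr5:31400497-31532196, minus strand), the RNase of the nuclear step, differed between the hairpins in direction. It reached 108, 113 and 110 CPM in the hairpin 1 libraries, 195, 189 and 187 CPM under hairpin 2, 121, 123 and 115 CPM under hairpin 3, and 127, 123 and 124 CPM in the control. All hairpin 2 libraries were above, and all hairpin 1 libraries below, every control library, and hairpin 3 overlapped the control. DROSHA rose by a log2 fold change of 0.61 ± 0.05 (SE, n = 3 libraries per line) with hairpin 2 (adjusted p = 1.36e-06 in edgeR). It was lower with hairpin 1 (-0.18 ± 0.05, adjusted p = 0.0147 in edgeR), a call lost without the first hairpin 1 library (-0.16). With hairpin 3 the value was -0.06 ± 0.05 (adjusted p = 0.405 in edgeR). Under offsets for length and GC it was 0.27 ± 0.06 with hairpin 2 and -0.44 ± 0.06 with hairpin 1, and with the slope as a covariate 0.56 ± 0.07 and -0.22 ± 0.06, each of them called. The hairpin 3 value was called lower under offsets (-0.19 ± 0.06, adjusted p = 0.0185 in edgeR) and was not called with the covariate (-0.08 ± 0.04).

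DGCR8 (Entrez 54487, chr22:20080232-20111877, plus strand), the partner of DROSHA, reached 91.4, 93.0 and 95.9 CPM in the hairpin 1 libraries, 95.1, 90.03 and 85.9 CPM under hairpin 2, 81.8, 86.05 and 85.2 CPM under hairpin 3, and 85.4, 86.2 and 88.8 CPM in the control. Hairpin 1 libraries lay above every control library, and the other lines overlapped the control. Its log2 fold change was 0.11 with hairpin 1, 0.06 with hairpin 2 and -0.04 with hairpin 3 (SE 0.06 each), and none was called with TMM alone (adjusted p = 0.138, 0.394 and 0.593 in edgeR). None was called under offsets (0.07, -0.02 and -0.01), and the hairpin 1 value was called higher with the covariate (0.19 ± 0.07, adjusted p = 0.03 in edgeR). On log2(TPM + 1), limma called DGCR8 higher with hairpin 1 (0.25, adjusted p = 0.00438) and hairpin 2 (0.24, adjusted p = 0.00401), where the median of all tested genes stood at 0.29 and 0.33. On the TPM scale, which is per length, the ratio of DROSHA to DGCR8 was 1.06 ± 0.03 with hairpin 1, 1.93 ± 0.09 with hairpin 2, 1.36 ± 0.03 with hairpin 3 and 1.38 ± 0.01 in the control (SD, n = 3 each). Reads of DGCR8 cannot be told apart from those of antisense transcript AC006547.2 over 526 exonic bases, 7.19% of its exonic length.

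XPO5 (Entrez 57510, chr6:43522330-43576075, minus strand), the exporter of hairpin precursors, reached 147, 152 and 143 CPM in the hairpin 1 libraries, 145, 131 and 135 CPM under hairpin 2, 153, 140 and 138 CPM under hairpin 3, and 154, 134 and 133 CPM in the control. In CPM every line overlapped the control. Per length, all libraries of hairpin 1 (52.5 to 57.0 TPM) and of hairpin 2 (50.4 to 54.2 TPM) lay above those of the control (34.0 to 49.95 TPM). In CPM its log2 fold change was 0.07 with hairpin 1, -0.03 with hairpin 2 and 0.03 with hairpin 3 (SE 0.08 each), and none was called with TMM alone (adjusted p = 0.408, 0.723 and 0.761 in edgeR). Under length and GC offsets XPO5 was called lower with hairpin 1 (-0.24 ± 0.05) and hairpin 2 (-0.47 ± 0.05). With the covariate it was called lower with hairpin 2 (-0.29 ± 0.08, adjusted p = 0.00237 in edgeR) and was not called with hairpin 1 (-0.13 ± 0.07). On log2(TPM + 1), limma called it higher with hairpin 1 (0.45, adjusted p = 0.014) and hairpin 2 (0.40, adjusted p = 0.0196). On that scale the median of all tested genes stood at 0.29 and 0.33, and 50.2% and 53.0% of them were called higher. XPO5 shares 348 exonic bases (4.08%) with POLR1C on the opposite strand, and the protocol names no step that marks strand.

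DICER1 (Entrez 23405, chr14:95086228-95158010, minus strand), the cytoplasmic RNase, reached 114, 124 and 122 CPM in the hairpin 1 libraries, 140, 159 and 168 CPM under hairpin 2, 126, 67.5 and 62.8 CPM under hairpin 3, and 56.0, 36.5 and 31.7 CPM in the control. All 9 knockdown libraries were above all 3 control libraries, and the first libraries of hairpin 3 and of the control were the highest of their lines. DICER1 rose with hairpin 1 (1.54 ± 0.26, adjusted p = 0.000503 in edgeR), hairpin 2 (1.91 ± 0.26, adjusted p = 4.12e-05) and hairpin 3 (1.05 ± 0.26, adjusted p = 0.00628). The call with hairpin 3 was lost when hairpin 3 and the control were fitted alone (1.05, adjusted p = 0.0504 in edgeR). With the replicate number as a block in that fit it was called (1.03, adjusted p = 2.87e-24 in edgeR). The block was added after seeing the data, left 2 residual degrees of freedom per gene and called 71.4% of tested genes. Its p-values rest mostly on a spread shared over genes, so it does not settle the call. Under length and GC offsets the rises were 0.73, 0.89 and 0.57 (SE 0.07 each), and with the slope as a covariate 0.47, 0.55 and 0.52, all of them called.

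TARBP2 (Entrez 6895, chr12:53500921-53506431, plus strand), the RNA-binding partner of DICER1 and the shortest of the 10, ran the other way. It reached 27.6, 28.0 and 27.6 CPM in the hairpin 1 libraries, 17.6, 18.3 and 15.9 CPM under hairpin 2, 30.5, 37.8 and 40.5 CPM under hairpin 3, and 30.3, 36.9 and 43.1 CPM in the control. Hairpins 1 and 2 lay below every control library, and hairpin 3 overlapped the control. TARBP2 fell with hairpin 2 (-1.09 ± 0.13, adjusted p = 1.9e-05 in edgeR), and under offsets (-0.27 ± 0.06) and the covariate (-0.43 ± 0.12) this fall was smaller and still called. With hairpin 1 it was called lower with TMM alone (-0.41 ± 0.13, adjusted p = 0.0179 in edgeR), was not called with the covariate (0.12) and was called higher under offsets (0.22 ± 0.06). With hairpin 3 it was at -0.02 ± 0.13 (adjusted p = 0.911 in edgeR), and was called higher under offsets (0.39 ± 0.05) and the covariate (0.22 ± 0.06). The call with hairpin 1 was also lost without the third control library (-0.28). The ratio of DICER1 to TARBP2 on the TPM scale was 0.493 ± 0.018 with hairpin 1, 1.04 ± 0.17 with hairpin 2, 0.285 ± 0.156 with hairpin 3 and 0.138 ± 0.069 in the control (SD, n = 3 each). This ratio of a long to a short transcript was not corrected for the length slope of each library.

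**Figure D2:**
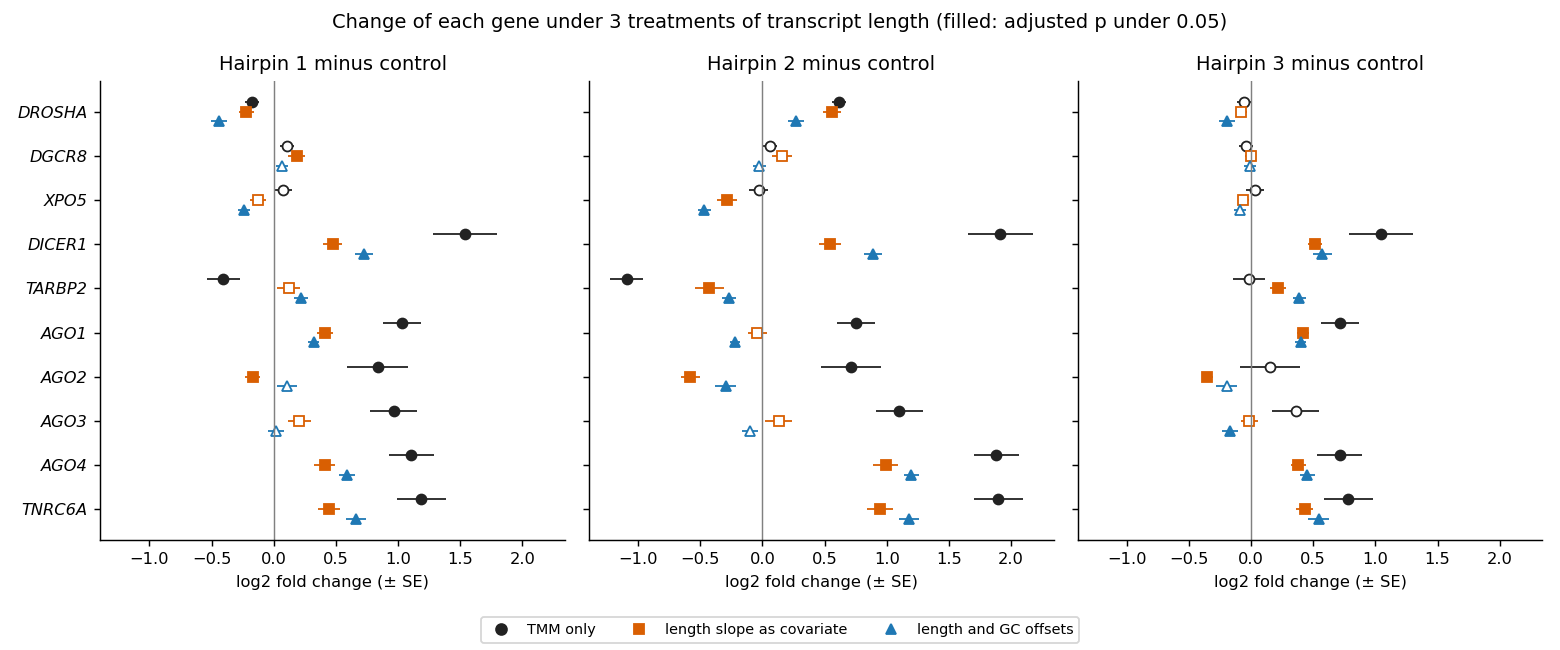
log2 fold change of each gene (x axis, with SE) for hairpins 1, 2 and 3 minus control, with TMM scaling alone (circles), the length slope of each library as a covariate (squares) and length and GC offsets (triangles); filled symbols have an adjusted p under 0.05. DICER1, AGO4 and TNRC6A stay above 0 and filled in all 9 estimates, while AGO2 moves to the left of 0 with hairpin 2 under both corrections.

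The Argonaute genes AGO4, AGO1 and AGO3 follow one another on the plus strand of chromosome 1, while AGO2, which encodes the Argonaute known to slice its targets, lies on chromosome 8. AGO4 (Entrez 192670, chr1:35808172-35857890) reached 59.3, 62.6 and 62.0 CPM in the hairpin 1 libraries, 106, 102 and 106 CPM under hairpin 2, 58.6, 42.8 and 38.4 CPM under hairpin 3, and 37.05, 26.2 and 22.0 CPM in the control. All 9 knockdown libraries were above the 3 control libraries, and hairpin 2 was above all the others. AGO4 rose with hairpin 1 (1.11 ± 0.18, adjusted p = 0.000393 in edgeR), hairpin 2 (1.88 ± 0.18, adjusted p = 2.6e-06) and hairpin 3 (0.71 ± 0.18, adjusted p = 0.00719). The last call was lost when the line was fitted with the control alone (0.72, adjusted p = 0.0572 in edgeR). AGO4 was called there with the block added after seeing the data (0.72, adjusted p = 1.75e-15 in edgeR), with the limits given for DICER1. Under length and GC offsets the rises were 0.59, 1.20 and 0.45 (SE 0.06 each), and with the covariate 0.41, 0.99 and 0.38, all of them called.

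AGO1 (Entrez 26523, chr1:35869808-35930528) reached 196, 218 and 216 CPM in the hairpin 1 libraries, 174, 172 and 174 CPM under hairpin 2, 211, 150 and 145 CPM under hairpin 3, and 127, 95.3 and 85.9 CPM in the control. Every knockdown library was above every control library. AGO1 rose with hairpin 1 (1.03 ± 0.16, adjusted p = 0.000253 in edgeR), hairpin 2 (0.75 ± 0.16, adjusted p = 0.00091) and hairpin 3 (0.71 ± 0.16, adjusted p = 0.00315). The rise held under offsets with hairpin 1 (0.32 ± 0.04) and hairpin 3 (0.40 ± 0.04). With hairpin 2 it turned round: AGO1 was called lower under offsets (-0.22 ± 0.04) and stood at -0.04 ± 0.07 with the covariate (adjusted p = 0.655 in edgeR).

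AGO2 (Entrez 27161) reached 251, 279 and 262 CPM in the hairpin 1 libraries, 225, 235 and 268 CPM under hairpin 2, 239, 131 and 123 CPM under hairpin 3, and 197, 135 and 112 CPM in the control. Hairpins 1 and 2 lay above every control library, while hairpin 3 overlapped the control and its first library was far above the others. AGO2 was called higher with hairpin 1 (0.84 ± 0.24, adjusted p = 0.0111 in edgeR) and hairpin 2 (0.71 ± 0.24, adjusted p = 0.0195), and was at 0.15 ± 0.24 with hairpin 3 (adjusted p = 0.627). With hairpin 3 and the control fitted alone and the block added after seeing the data, AGO2 was called higher (0.14 ± 0.05, adjusted p = 0.00827 in edgeR). In 1 of the 3 same-numbered pairs hairpin 3 was the lower, and the limits given for DICER1 apply. The call with hairpin 2 was lost without the second (0.65) or the third control library (0.54) or the third hairpin 2 library (0.63). Under offsets AGO2 stood at 0.11, -0.29 and -0.20 (SE 0.08 each) with hairpins 1, 2 and 3, of which the hairpin 2 value was called, and with the covariate it was called lower with each (-0.17, -0.58 and -0.35).

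AGO3 (Entrez 192669, chr1:35930718-36072500) reached 74.5, 78.4 and 70.6 CPM in the hairpin 1 libraries, 74.2, 84.4 and 87.2 CPM under hairpin 2, 66.0, 44.4 and 36.5 CPM under hairpin 3, and 46.3, 35.4 and 32.9 CPM in the control. Hairpins 1 and 2 lay above every control library. Hairpin 3 overlapped the control, but each of its libraries was above the control library of the same number. AGO3 was called higher with hairpin 1 (0.96 ± 0.19, adjusted p = 0.00123 in edgeR) and hairpin 2 (1.10 ± 0.19, adjusted p = 0.000244), and was at 0.36 ± 0.19 with hairpin 3 (adjusted p = 0.138). With hairpin 3 and the control fitted alone and the block added after seeing the data, AGO3 was called higher (0.35 ± 0.06, adjusted p = 3.21e-06 in edgeR). The limits of that fit given for DICER1 apply. The hairpin 3 value became a call without the first library of the control (0.52) or the third hairpin 3 library (0.53). Under offsets AGO3 stood at 0.02, -0.10 and -0.17 with the 3 hairpins and only the last was called, as a fall, and with the covariate it was at 0.21, 0.13 and -0.02, none of them called.

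Summed over the 4 genes, Argonaute mRNA was at 91.9 ± 4.46 TPM with hairpin 1, 102 ± 7.36 TPM with hairpin 2, 57.4 ± 22.5 TPM with hairpin 3 and 37.4 ± 14.1 TPM in the control (SD, n = 3 each). The hairpin 3 libraries spread from 41.7 to 83.2 TPM and overlapped the control, which spread from 25.9 to 53.2 TPM. Within that sum the shares moved less. AGO2 made up 37.4%, 32.2% and 32.3% with hairpins 1, 2 and 3, against 40.4% in the control, and the highest knockdown library (38.0%) lay below the lowest control library (38.9%). AGO4 made up 18.8%, 30.4% and 20.5%, against 17.3% in the control, and every knockdown library was above every control library. AGO1 made up 33.7%, 26.0% and 38.3%, against 32.2%, and AGO3 between 8.96% and 11.3% in every line. Such shares are ratios within a library, and they were described without a test. Neither the sum nor the shares were corrected for the length slope, and AGO1, AGO2 and AGO3 were longer than 99% of tested genes. Under length and GC offsets, AGO1, AGO2, AGO3 and AGO4 stood at 0.32, 0.11, 0.02 and 0.59 with hairpin 1. With hairpin 2 they stood at -0.22, -0.29, -0.10 and 1.20. On log2(TPM + 1) the median log2 fold change of all tested genes was 0.29 with hairpin 1 and 0.33 with hairpin 2.

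**Figure D3:**
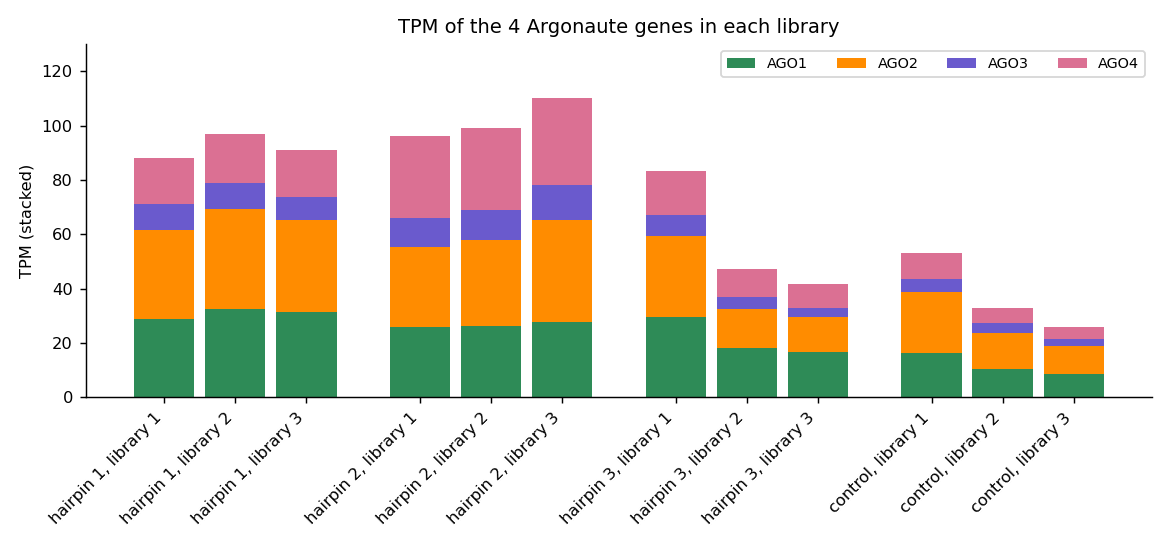
TPM of AGO1, AGO2, AGO3 and AGO4 stacked for each library (y axis, from 0; x axis, libraries of hairpin 1, hairpin 2, hairpin 3 and the control). The sum reached 88.0 to 110 TPM with hairpins 1 and 2, and 25.9 to 53.2 TPM in the control, with the first hairpin 3 library at 83.2 TPM. These values are not corrected for the length slope of each library.

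TNRC6A (Entrez 27327, chr16:24610209-24827632, plus strand), the scaffold that links Argonaute to deadenylases, reached 83.8, 93.4 and 92.4 CPM in the hairpin 1 libraries, 147, 142 and 152 CPM under hairpin 2, 85.2, 61.0 and 57.3 CPM under hairpin 3, and 52.3, 38.3 and 27.7 CPM in the control. All knockdown libraries were above all control libraries, and hairpin 2 was the highest line. TNRC6A rose with hairpin 1 (1.19 ± 0.20, adjusted p = 0.000467 in edgeR), hairpin 2 (1.90 ± 0.20, adjusted p = 5.39e-06) and hairpin 3 (0.78 ± 0.20, adjusted p = 0.00728). The last call was lost in the fit with the control alone (0.79, adjusted p = 0.0557 in edgeR). TNRC6A was called there with the block added after seeing the data (0.80, adjusted p = 4.44e-18 in edgeR), with the limits given for DICER1. Under offsets the rises were 0.66, 1.18 and 0.54 (SE 0.08 each), and with the covariate 0.45, 0.95 and 0.43, all of them called.

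The 4 members with all 9 knockdown libraries above all 3 control libraries in CPM compare with 12.5% of all tested genes. In TPM this stood for DICER1 and AGO1, while AGO4 and TNRC6A overlapped, with hairpin 3 down to 8.70 and 10.6 TPM and the control up to 9.64 and 11.2 TPM. Members called higher with each hairpin numbered 4 with TMM alone, against 13.9% of tested genes, and 3 under length and GC offsets, against 13.7%. Those 3 were DICER1, AGO4 and TNRC6A. Under offsets 5 members were higher and 2 lower with hairpin 1, where 29.4% and 31.1% of tested genes were (60.5% called in all). With hairpin 2 they were 4 and 4, against 37.3% and 38.8% (76.1%), and with hairpin 3 they were 5 and 2, against 28.8% and 27.8% (56.6%). The member medians were then 0.16, -0.06 and 0.19, with called rises of at least 2-fold for 0, 2 and 0 members (3.66%, 9.29% and 2.63% of tested genes). The 2 were AGO4 and TNRC6A with hairpin 2.

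**Figure D4:**
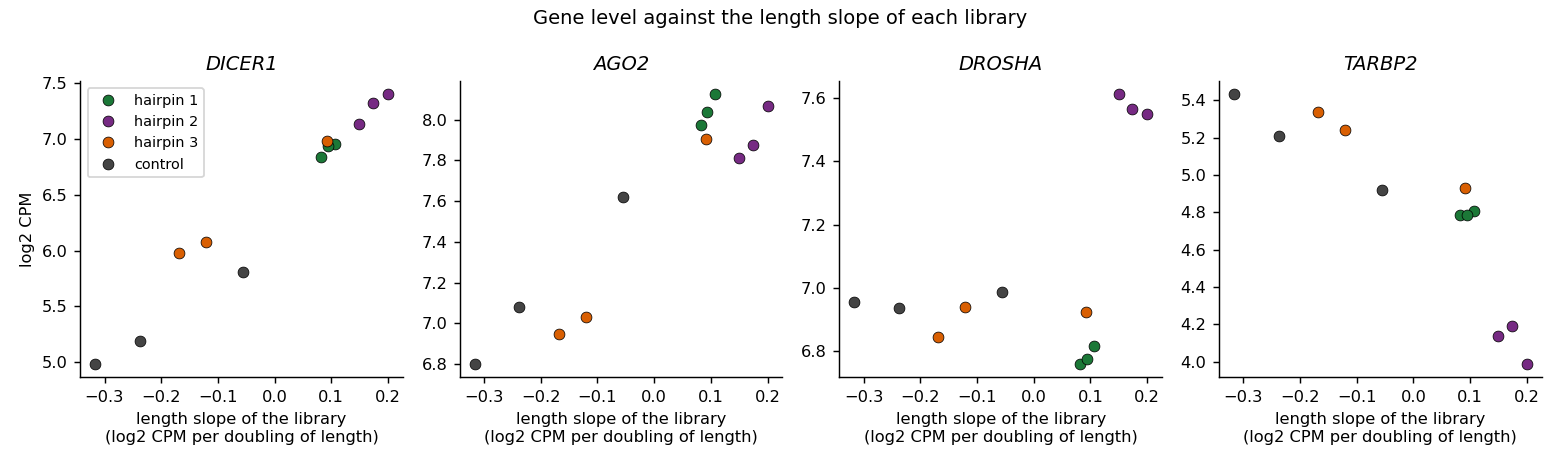
log2 CPM of DICER1, AGO2, DROSHA and TARBP2 (y axes) against the length slope of each library (x axis, log2 CPM per doubling of transcript length), coloured by line. DICER1 and AGO2 are higher and TARBP2 lower where the slope is higher, also between libraries of hairpin 3 and of the control, while DROSHA is high in the hairpin 2 libraries alone.

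The hairpins were also compared with each other, which leaves the control libraries out of the difference. Hairpin 2 against hairpin 1 gave 3 members higher and 1 lower (28.2% and 29.4% of all tested genes, 57.6% called in all). DROSHA, AGO4 and TNRC6A were higher with hairpin 2, and TARBP2 was lower. Hairpin 3 against hairpin 2 gave 1 member higher, TARBP2, and 5 lower, DROSHA, DICER1, AGO3, AGO4 and TNRC6A (33.4% of tested genes higher and 31.9% lower, 65.3% called in all). Hairpin 3 against hairpin 1 gave 0 called members (9.45% of tested genes called), with log2 fold changes from -0.68 for AGO2 to 0.39 for TARBP2. The count of called members was 7 without the first hairpin 3 library (40.5% of tested genes), 8 without both it and the first control library (57.1%), and 2 with DESeq2 (15.3%). At an unadjusted p under 0.05 in edgeR there were 5, TARBP2 higher and DGCR8, AGO2, AGO3 and AGO4 lower.

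Per length, on the TPM scale, the order of the members changed between lines. DROSHA had the highest mean with hairpin 2 (85.8 ± 1.39 TPM), hairpin 3 (51.6 ± 2.67 TPM) and in the control (51.7 ± 2.56 TPM), and XPO5 had it with hairpin 1 (54.6 ± 2.28 TPM, SD, n = 3 each). With hairpin 3 the libraries of DROSHA, TARBP2 and XPO5 overlapped. XPO5 was the highest in the first hairpin 3 library (54.1 TPM, DROSHA 53.6 TPM) and TARBP2 in the third (49.9 TPM, DROSHA 48.6 TPM). AGO3 was the least abundant in every line, at 9.29 ± 0.71, 11.6 ± 1.23 and 5.19 ± 2.23 TPM with hairpins 1, 2 and 3 and between 2.89 and 4.59 TPM in the control. With hairpin 2, TNRC6A, AGO2, AGO4, DICER1, TARBP2 and AGO1 held neighbouring ranks from 38.6 to 26.5 TPM, and each overlapped the next in its libraries. In the control AGO2, AGO1, TNRC6A, AGO4, DICER1 and AGO3 overlapped in the same way, from 15.3 TPM for AGO2 downwards. TARBP2 stood at 28.5 TPM with hairpin 2, against 44.0 TPM in the control, and DICER1 at 29.5 TPM against 5.96 TPM. The TPM values were not corrected for the length slope of each library.

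The genes whose log2 CPM ran most like that of DICER1 over the 12 libraries were RANBP2, PIAS2, CPD, LEMD3 and EFR3A (Pearson r from 0.996 to 0.998), and the least like it were GAPDH and NAA10 (r = -0.996 and -0.997). For AGO2 they were GPATCH2L, SPTLC2, XPO4, PTPN11 and ARAP2 (r from 0.986 to 0.993), and the least like it were FAU and RPS27A (r = -0.987 each). Implied lengths of the first kind ran from 4005 bases for PIAS2 to 10622 bases for RANBP2, and of the second from 232 bases for FAU to 1326 bases for NAA10. Among members, AGO3 (r = 0.94) ran most like AGO2, and DROSHA (r = 0.25) least apart from TARBP2 (r = -0.75). The 12 points come from 4 lines and share the length slope, so these values are given as a description.

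Other genes of the pathway were read from lists, which were not tested as sets. Of all tested genes, 31.5%, 36.6% and 23.6% were called higher with hairpins 1, 2 and 3, and 31.5%, 37.8% and 24.0% lower. Under offsets 29.4%, 37.3% and 28.8% were higher, and 31.1%, 38.8% and 27.8% lower. The counts of every list below are to be read beside these shares, and several lay near them. Of 19 nuclear cofactors of processing and export, hairpins 1, 2 and 3 had 4, 2 and 6 higher and 5, 10 and 1 lower (medians 0.04, -0.36 and 0.07). HNRNPA1, an RNA-binding protein that associates with primary microRNAs, was at -1.05 ± 0.08 with hairpin 2, where it fell to 1424 CPM against 2940 CPM in the control. RAN, the GTPase that XPO5 exports with, and RCC1, its exchange factor, fell with hairpin 2 (-0.85 ± 0.08 and -0.73 ± 0.06). The falls of these 3 genes with hairpin 2 were also called under length and GC offsets (-1.35, -0.91 and -0.58). HNRNPA1 and RAN were also called lower with hairpin 1 (-0.49 each, and -0.75 and -0.56 under offsets), and with hairpin 3 under offsets though not with TMM alone (-0.33 and -0.29).

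Of 10 tested partners of DICER1 and controllers of its precursors, hairpins 1, 2 and 3 had 7, 5 and 4 higher and 1, 3 and 1 lower. PRKRA, a DICER1 partner related to TARBP2, was at 53.6, 29.1 and 52.0 CPM with the hairpins and 55.6 CPM in the control, and fell with hairpin 2 (-0.93 ± 0.07, and -0.92 under offsets). TUT4, a uridylyltransferase that tags precursors, rose with hairpin 1 (0.81 ± 0.17) and hairpin 2 (1.29 ± 0.17), also under offsets (0.28 and 0.65). ADAR, an RNA-editing enzyme, rose with hairpin 2 (0.95 ± 0.11, and 0.40 under offsets). It was also called higher with hairpin 1 with TMM alone (0.47) and with hairpin 3 under offsets (0.13). Its hairpin 1 value under offsets (0.07) and its hairpin 3 value with TMM alone (0.29) were not called. ZC3H12A, an RNase that cuts precursors, fell with each hairpin (-0.66, -0.48 and -0.37). Under offsets only the hairpin 1 value of ZC3H12A was called (-0.29).

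Of 15 tested genes listed for Argonaute loading, chaperones and translin among them, hairpins 1, 2 and 3 had 9, 5 and 11 higher and 3, 8 and 1 lower. HSPA8, the constitutive HSP70, was at 2576, 3592 and 3807 CPM with hairpins 1, 2 and 3 and 1477 CPM in the control, with rises of 0.80, 1.28 and 1.37 (SE 0.06 each). Its cochaperone DNAJA1 rose by 0.77, 0.90 and 1.09 (SE 0.05 each). Both held under offsets, at 0.87, 1.37 and 1.38 for HSPA8 and 0.70, 0.86 and 0.98 for DNAJA1. HSPA4, another HSP70 relative, rose by 0.43 to 0.44 with each hairpin and lost these calls under offsets. TSN, translin, an RNA-binding subunit of the nuclease complex C3PO, fell with each hairpin (-0.32, -0.54 and -0.38), also under offsets (-0.55, -0.80 and -0.56).

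Of 35 tested silencing effectors downstream of Argonaute, hairpins 1, 2 and 3 had 22, 22 and 18 higher and 6, 7 and 6 lower (medians 0.34, 0.47 and 0.31, and 0.16, 0.08 and 0.21 under offsets). The deadenylase adaptors moved in different directions. BTG1 was at 36.5, 50.3 and 50.5 CPM with the hairpins and 120 CPM in the control, a fall of -1.72, -1.25 and -1.25 (SE 0.07 each), while TOB1 rose by 1.22, 1.82 and 1.28 (SE 0.12 each). BTG2 rose with hairpin 2 (2.21 ± 0.09) and hairpin 3 (0.83 ± 0.09) and was at 0.11 ± 0.09 with hairpin 1. PABPC4, a poly(A)-binding protein gene, fell by most with hairpin 2 (-1.35 ± 0.07). These calls held under offsets.

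Of 11 tested genes that modify Argonaute or turn microRNAs over, 4, 5 and 4 were higher and 3, 0 and 2 lower. P4HA1, a subunit of the prolyl hydroxylase that modifies AGO2 in human cells, rose with each hairpin (1.16, 0.82 and 0.73), as did ANKRD52, a subunit of the phosphatase that acts on Argonaute (0.86, 1.09 and 0.83). ZSWIM8, the ubiquitin ligase adaptor of target-directed microRNA decay, rose with hairpin 2 (1.00 ± 0.07, 183 CPM against 91.6 CPM in the control) and was at 0.01 and 0.07 with hairpins 1 and 3. XRN2, a 5′ to 3′ exonuclease, rose by 0.56, 0.54 and 0.43. The rises of P4HA1, ANKRD52 and XRN2 with each hairpin, and of ZSWIM8 with hairpin 2, were called under offsets too.

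Of 13 tested sensors and binders of double-stranded RNA, which can also respond to hairpins, hairpins 1, 2 and 3 had 5, 12 and 4 higher and 1, 0 and 2 lower, with medians of 0.21, 1.21 and 0.28. Under offsets 3, 11 and 3 were higher and 5, 1 and 5 lower, with medians of -0.14, 0.72 and 0.12. IFIH1, the sensor MDA5, was at 12.1 CPM with hairpin 2, against 2.62 CPM in the control (2.20 ± 0.16), and at 3.40 and 3.17 CPM with hairpins 1 and 3, where it was not called. OAS3, an oligoadenylate synthetase, rose by 0.73, 0.91 and 0.59, and its relative OASL fell with hairpins 1 and 3 (-2.42 and -0.78) and was called higher with hairpin 2 (0.34 ± 0.14).

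Of 43 listed microRNA host genes other than SKA2, 31 were in the table and 29 were tested, of which 12, 11 and 7 were higher and 7, 8 and 7 lower. PTK2, a host and a focal adhesion kinase gene, rose with each hairpin (0.47, 1.18 and 0.36), and SREBF1, which hosts miR-33b, fell with each (-0.21, -0.54 and -0.74), the hairpin 1 value not being called under offsets. GPC1, the host of miR-149, was at 31.6 and 31.0 CPM with hairpins 1 and 3, 96.7 CPM with hairpin 2 and 70.1 CPM in the control. IGF2, the host of miR-483, averaged 6.69, 0.066 and 4.13 CPM with hairpins 1, 2 and 3 and 6.55 CPM in the control. Of the 4 PIWI genes 1 was tested and it was not called with any hairpin.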

How the data were processed

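Poly(A)-selected RNA was primed with random hexamers and sequenced on BGISEQ-500, per the labels' protocols. HISAT, Bowtie2, RSEM and DESeq2 with GRCh38.p13 are named, per the submitters' processing notes, with roles and versions not given in the sources used here. A table of expected counts, FPKM and TPM per library was deposited, per the file headers. In each library 84.0% to 86.0% of expected counts equalled a whole number exactly, zeros included. A further 15 columns of the authors' averages were not used.

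Expected counts were rounded and tested over 12868 genes with edgeR 4.0.16 (R 4.3.3): filterByExpr, TMM, 1 quasi-likelihood model over the 12 libraries, two-sided, Benjamini-Hochberg. The common biological coefficient of variation was 0.111, with 8 residual degrees of freedom. SE is the absolute log2 fold change over the square root of F. Transcript length was the ratio of deposited expected counts, FPKM and library totals. Length and GC offsets used natural splines with 5 degrees of freedom each. Alternatives included DESeq2 1.42.0, limma 3.58.1 on log2(TPM + 1) and log2(TPM + 0.1), and leaving out each library. Same-numbered libraries of hairpin 3 and the control deviated together from their line means (Pearson r = 0.73, 0.17 and 0.60 across genes). They were taken as paired only in the fits with a block, and the main model had none. Unlike-numbered libraries of hairpin 3 and the control had r from -0.67 to 0.39. The second hairpin 3 library ran more like the third control library (0.39) than the second (0.17), so these values do not settle how libraries 2 and 3 pair. No other 2 lines deviated together in each pair, and no label says what the numbers share. The fit was also run on simulated counts with known changes. Those counts held no length slope and no unequal spread between lines, so that run does not check the calls given here. Positions and UTRs are from GENCODE v29.

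The 10 members and 10 further lists were chosen with earlier results of these data known. Genes were named by rule: the members, SKA2, up to 4 genes per list called in the mean of the hairpins by smallest adjusted p, and the 5 genes most and 2 least correlated with AGO2 and DICER1. Of the genes this rule names, 2 are not reported here.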

Additional observations from a re-analysis of the deposited data

Results flagged for a closer look

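The hairpins share a target, and 10 differences between them in single members passed the quasi-likelihood test of edgeR after Benjamini-Hochberg adjustment (log2 fold change ± SE, 3 libraries per line). Hairpin 2 against hairpin 1 gave 4 of them, where 57.6% of all tested genes were called. Hairpin 3 against hairpin 2 gave 6, where 65.3% were called. The counts are thus no larger than the whole table would give. Against hairpin 1, hairpin 2 was higher in DROSHA (0.79 ± 0.05, adjusted p = 3.09e-07), AGO4 (0.78 ± 0.17, adjusted p = 0.00238) and TNRC6A (0.71 ± 0.19, adjusted p = 0.00745). It was lower in TARBP2 (-0.69 ± 0.14, adjusted p = 0.00104). Against hairpin 2, hairpin 3 was lower in DROSHA (-0.67 ± 0.05, adjusted p = 9.9e-07), AGO4 (-1.17 ± 0.18, adjusted p = 0.000125) and TNRC6A (-1.12 ± 0.19, adjusted p = 0.000364). It was also lower in DICER1 (-0.87 ± 0.25, adjusted p = 0.00988) and AGO3 (-0.74 ± 0.19, adjusted p = 0.00437), and higher in TARBP2 (1.07 ± 0.13, adjusted p = 3.16e-05).

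The differences in DROSHA, AGO4, TNRC6A and TARBP2 were also called under length and GC offsets and when the length slope of the libraries entered the fit. Those of DICER1 and AGO3 between hairpins 3 and 2 were not called with the covariate (-0.03 and -0.15), and that of AGO3 was not called with offsets either (-0.07). Epithelial markers also differed between these lines: 1543 to 1649 TPM summed with hairpin 2, against 3133 to 3269 TPM with hairpin 1 and 2766 to 3083 TPM with hairpin 3. Their part in these differences was not tested.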

How the results depend on the processing

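Treatment of transcript length moved the members most. With the length slope as a covariate, log2 fold changes turned to -0.13 for XPO5, 0.12 for TARBP2 and -0.17 for AGO2 with hairpin 1, to -0.040 for AGO1 and -0.58 for AGO2 with hairpin 2, and to -0.063 for XPO5, 0.22 for TARBP2, -0.35 for AGO2 and -0.015 for AGO3 with hairpin 3. With length and GC offsets they turned to -0.24 for XPO5 and 0.22 for TARBP2 with hairpin 1. The same offsets gave -0.024 for DGCR8, -0.22 for AGO1, -0.29 for AGO2 and -0.10 for AGO3 with hairpin 2, and -0.092 for XPO5, 0.39 for TARBP2, -0.20 for AGO2 and -0.17 for AGO3 with hairpin 3. On the TPM scale, limma moved the median of all tested genes by 0.29, 0.33 and 0.12 with hairpins 1, 2 and 3. XPO5 with hairpin 2 was then 0.40 and 0.41 with pseudocounts of 1 and 0.1, and with hairpin 3 TARBP2 was 0.15 with both and DGCR8 was 0.018 and 0.019.

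The count of called members with hairpin 3 was 1 in the fit of the compared groups alone (27.7% of tested genes called) and 7 with offsets (56.6%). In the mean of the hairpins it was 5 with the 9 knockdown libraries as 1 group (38.3%). Hairpin 2 against hairpin 1 gave 7 members in the fit of the compared groups alone (76.2%), 7 with the covariate (75.2%) and 8 with offsets (71%). The counts of called members thus moved with the share of all tested genes called. Hairpin 3 against hairpin 1 gave 2 with DESeq2 (15.3%), 4 with the covariate (27.4% of tested genes called), 5 with offsets (24.2%) and 2 with limma at either pseudocount (12.2% and 11.2%). It gave 0 to 7 when each library was left out in turn (1.84% to 40.5%). An alternative chosen after seeing the data left out the first control and first hairpin 3 libraries together. Hairpin 3 against hairpin 1 then gave 8 (57.1%), and XPO5 with hairpin 2 was 0.038.

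Leaving out each library in turn turned the sign of values near 0: XPO5 ranged from -0.074 to 0.039 with hairpin 2 and from -0.018 to 0.10 with hairpin 3, TARBP2 with hairpin 3 from -0.14 to 0.11, and AGO2 with hairpin 3 from -0.22 to 0.41. Without 1 library at a time, 464 of 480 values of single members kept their direction and side of the threshold, and 396 of 450 did under the other alternatives. SKA2 kept both in 48 of 48 and 45 of 45.

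Same-numbered libraries of different lines had correlations from -0.25 to 0.73 over 18 pairs. Unlike-numbered libraries had -0.67 to 0.39 over 36 pairs, the highest between the third control and the second hairpin 3 library. Numbers were taken to pair the libraries for hairpin 3 and the control only, and not in the main fit. These values do not settle the pairing for libraries 2 and 3. In those 2 lines alone, a fit with the number as a block, added after seeing the data, called 6 members higher (71.4% of tested genes called), against 1 without the block (27.7%). It had 2 residual degrees of freedom per gene. With the replicate number as a block over all 12 libraries, the count for hairpin 3 against hairpin 1 was 1 (10.5% of tested genes called), and the other counts of called members stayed within 1.5 times. In the mean contrast, the fit of the compared groups alone is the fit of all 12 libraries and was not run again. The design holds 1 line per hairpin, so a difference between lines cannot be told apart from that of the hairpin, and all 10 members passed the expression filter at this depth.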
